A study of Homo sapiens with 4 samples.

Results

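RNA polymerase I and RNA polymerase III make most of the RNA in a growing cell, and their dedicated machinery is described here gene by gene in cells exposed to a CDK9 degrader. RNA polymerase I transcribes the large ribosomal RNA precursor in the nucleolus. RNA polymerase III makes transfer RNAs, 5S ribosomal RNA and other short RNAs. Each enzyme has its own large subunits and initiation factors, shares a set of small subunits with the other, and shares a further set with RNA polymerase II as well. The messenger RNAs that encode all of these proteins are themselves products of RNA polymerase II.

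The 40 genes were taken by name: subunits of RNA polymerase I and III, initiation factors of either enzyme, the small nuclear RNA activating protein complex (SNAPc) and the repressor MAF1. All 40 were found by current symbol among the 63241 genes of the deposited table, and the rule that names them uses no measured value. The samples were 22Rv1 cells, an established line from castration-resistant prostate cancer, of which 2 libraries came from cells given 40 nM JMC45 for 12 h and 2 from cells given the DMSO vehicle for 12 h. JMC45 is described by the submitters as a small molecule that targets CDK9, the kinase that releases paused RNA polymerase II into elongation, and the title calls the compound a CDK9 degrader. The series title and design use the name D45, here read as another name for JMC45. All groups are 1 cell line at 1 dose and 1 time, and nothing in the labels shows the 2 libraries of a group to be separate cultures. The p-values therefore rest on a library-to-library spread that may be technical.

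Values are TPM, which express each gene as a share of its poly(A)-selected library after scaling for transcript length, so levels can be compared between genes but the depth of the libraries is unknown. TPM is relative: the 100 most abundant genes held 62.9% and 64.2% of all TPM in the JMC45 libraries, against 44.1% and 45.7% in the vehicle libraries. The median of the 14018 genes tested changed by -1.10 on the log2(TPM + 1) scale, JMC45 minus vehicle, and by -0.016 under median-of-ratios scaling, which gives each library 1 factor. Changes are therefore given on TPM, relative to that median where stated, and after median-of-ratios scaling. No spike-in was analysed here, and in bulk RNA fewer cells holding a transcript and less of it per cell cannot be told apart. The epithelial genes KRT8, at 160 and 165 TPM in JMC45 against 198 and 208 TPM in vehicle, and EPCAM, at 43.2 and 47.5 TPM in JMC45 against 56.1 and 58.6 TPM in vehicle, were present in all libraries. The luminal markers did not change alike: KRT18 had 45.0 and 42.4 TPM in JMC45, against 206 and 221 TPM in vehicle. HOXB13 had 10.8 and 9.89 TPM in JMC45, against 94.95 and 96.6 TPM in vehicle, and SPDEF had 3.45 and 2.84 TPM in JMC45, against 29.4 and 31.2 TPM in vehicle. KLK3, which encodes prostate-specific antigen, had 14.2 and 11.5 TPM in JMC45, against 10.09 TPM in both vehicle libraries, and did not pass the test (log2 change 0.31, limma adjusted p = 0.0576). The leukocyte marker CD3E and the endothelial marker CDH5 were listed at 0 in all 4 libraries. The 8 luminal markers examined had at least 2.84 TPM in every library, and the 7 leukocyte and endothelial markers at most 1.12 TPM. Of the 3 neuroendocrine markers, SYP had 35.0 and 32.8 TPM in JMC45, against 38.8 and 38.1 TPM in vehicle. CHGA had at most 1.18 TPM, and INSM1 was listed at 0 in all 4 libraries. Of the fibroblast markers COL1A1 was the highest, at 1.12 and 2.26 TPM in JMC45 against 2.45 and 2.18 TPM in vehicle.

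The machinery took a smaller share of the JMC45 libraries. The summed TPM of the 40 genes was 675.5 and 660.2 in JMC45, against 1651 and 1646 in vehicle, or 40.5% of the vehicle level. Median-of-ratios scaling raised JMC45 relative to vehicle by 1.35 on the log2 scale. The sums here and below are given before that scaling, so they include the shift shared by most genes. GTF3C6, GTF3A, POLR1D and TAF1D made up 62.7% and 61.4% of the JMC45 sums. All 40 genes passed the filter of a mean TPM of at least 1, and limma, with p-values adjusted by the Benjamini-Hochberg method over all 14018 genes and a threshold of 0.05, called 37 lower (92.5%) and 0 higher in JMC45. At an unadjusted p under 0.05 there were also 0 higher. Of all genes tested, 80.7% were called lower and 4.25% higher. A decrease of at least 1 on the log2(TPM + 1) scale was called for 33 members (82.5%), against 54.3% of all genes. Both JMC45 libraries lay below both vehicle libraries for 39 members, against 85.7% of all genes.

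The members' median change was -1.89 on the log2(TPM + 1) scale, which is 0.79 below the median of all genes tested. Of the 40, 32 lay below that median gene and 8 above it. Among the changes of all genes tested, 11 members were in the lowest 10%, 25 in the lowest 25% and 6 in the highest 25%. After median-of-ratios scaling 27 members were lower (67.5%) and 7 higher (17.5%), against 35.5% and 34.9% of all genes. Quantile normalization gave 28 lower and 6 higher, against 34.5% and 32.7% of all genes. The same 25 members were called lower on TPM and after both scalings. The 3 members not called on TPM were POLR3G, SNAPC4 and TAF1C.

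**Figure D1:**
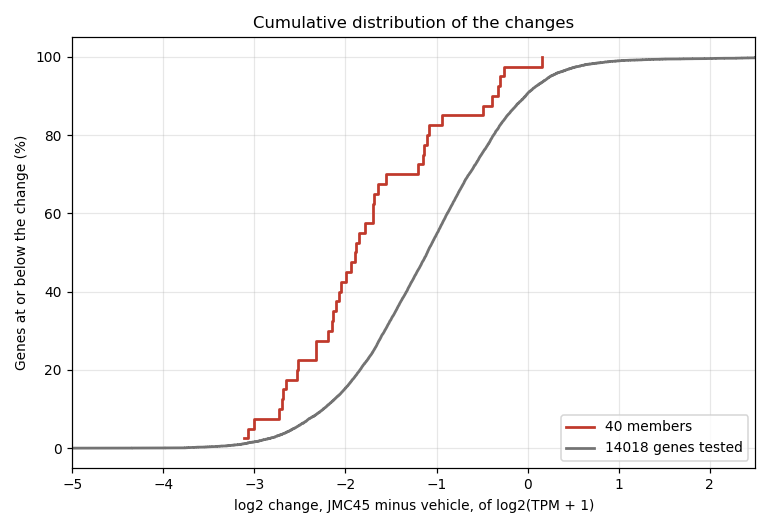
Cumulative distribution of log2 changes, JMC45 minus vehicle, of log2(TPM + 1), for the 40 members (red) and all 14018 genes tested (grey). The horizontal axis is the change and the vertical axis the percentage of genes at or below it. The red curve lies to the left of the grey one over most of its range, with medians of -1.89 and -1.10, and the 2 come close near the lowest changes.

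**Figure D2:**
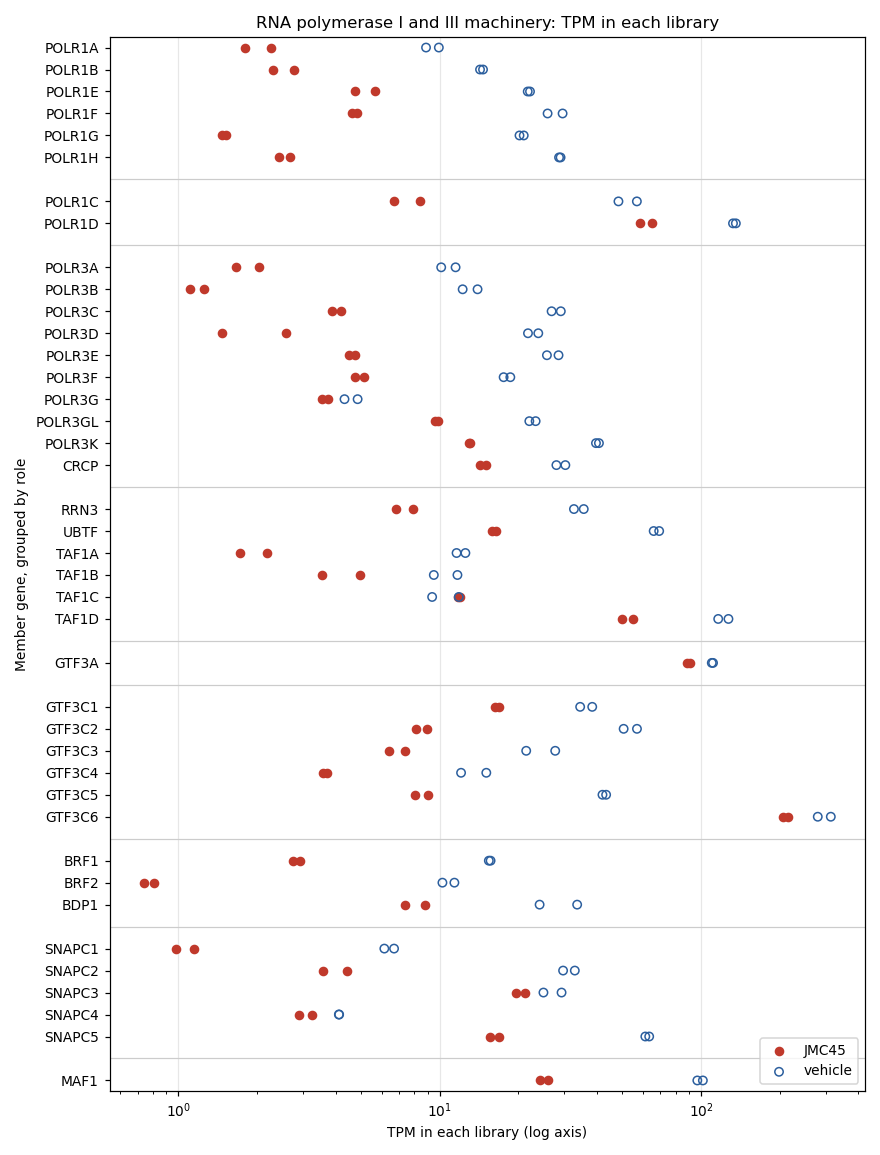
TPM of each member in each of the 4 libraries on a log axis, with members grouped by role and separated by grey lines (filled red, JMC45; open blue, vehicle). The red points lie left of the blue ones in 39 rows, by the widest distances for BRF2 and POLR1G, and the points of TAF1C overlap.

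Promoter sequence is shown for the 2 members with the lowest and the 2 with the highest changes among those with an entry, since these genes mark the ends of the range. Each stretch is the 120 bases just upstream of the start in RefSeq (build GRCh38.p14), written 5′ to 3′ on the gene's strand, with matches to any of 5 motifs in capitals. The POLR1G stretch is chr19:45406524-45406643 on the plus strand, the POLR1H stretch is chr6:30061145-30061264 on the plus strand, the TAF1C stretch is chr16:84187058-84187177 on the minus strand and the GTF3A stretch is chr13:27424499-27424618 on the plus strand.
POLR1G: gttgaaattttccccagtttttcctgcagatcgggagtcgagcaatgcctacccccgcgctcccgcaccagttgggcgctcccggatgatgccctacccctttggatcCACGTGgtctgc
POLR1H: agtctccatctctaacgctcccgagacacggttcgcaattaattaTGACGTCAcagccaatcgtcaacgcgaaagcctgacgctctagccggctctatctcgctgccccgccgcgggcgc
TAF1C: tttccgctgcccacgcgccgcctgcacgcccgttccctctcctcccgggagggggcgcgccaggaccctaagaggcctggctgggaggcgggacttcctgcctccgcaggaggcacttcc
GTF3A: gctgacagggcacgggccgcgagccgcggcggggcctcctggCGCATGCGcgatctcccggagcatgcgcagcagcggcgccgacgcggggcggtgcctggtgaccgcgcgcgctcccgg
The capitals mark an E-box (CACGTG) in POLR1G, a cyclic AMP response element (TGACGTCA) in POLR1H and an core of the NRF1 motif (CGCATGCG) in GTF3A, while none of the 5 was in the TAF1C stretch.

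The motifs were searched on both strands in the 250 bases upstream of the start, for the 33 members with an entry and for all 27305 promoters of the RefSeq table. None of the motifs contains another. The E-box was in 6 members (18.2%), namely GTF3C2, GTF3C4, GTF3C6, POLR1G, POLR3A and POLR3C, against 6.49% of all promoters. The ETS core CCGGAAG was in 8 members (24.2%), against 8.82% of all promoters. The cyclic AMP response element was in 3 (9.09%), against 1.77%, the NRF1 core in 2 (6.06%), against 1.86%, and TATAAA in 1 (3.03%), against 11.1%. The members with an E-box include both POLR1G, with a change of -3.11 on the log2(TPM + 1) scale, and GTF3C6, with -0.49. Median GC content of the windows was 60.0% for the members and 58.0% for all promoters. These are counts of letters, not of sites in use. The promoters compared with were not limited to the genes tested here, so a difference from expressed genes in general was not tested.

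All 6 subunits particular to RNA polymerase I fell, and all 6 lay below the median gene. Their summed TPM was 18.1 and 18.9 in JMC45, against 126 and 120 in vehicle, or 15.1% of the vehicle level, and their median change was -2.23. The other 2 scalings also called all 6 lower.

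POLR1A (ENSG00000068654), the largest catalytic subunit, had 2.26 and 1.80 TPM in JMC45, against 9.94 and 8.88 TPM in vehicle. Its log2 change was -1.78 (SE 0.14, limma adjusted p = 6.98e-05), the smallest decrease among the 6 on the log2(TPM + 1) scale. As a share of the vehicle mean POLR1E fell slightly less, to 23.7%, against 21.6% for POLR1A. With 0.1 instead of 1 added to TPM the changes were -2.06 for POLR1E and -2.16 for POLR1A. POLR1B (ENSG00000125630), the other subunit of the catalytic core, had 2.30 and 2.77 TPM in JMC45, against 14.3 and 14.7 TPM in vehicle (log2 change -2.13, SE 0.13, limma adjusted p = 2.38e-05). For POLR1A and POLR1B the 2 groups were far apart relative to the distance between libraries of a group.

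POLR1G (ENSG00000117877) and POLR1H (ENSG00000066379), whose upstream sequences are shown above, had the largest decreases on the log2(TPM + 1) scale of all 40 members. POLR1G, which forms a dimer with POLR1E on the enzyme, had 1.53 and 1.47 TPM in JMC45, against 21.0 and 20.2 TPM in vehicle, so JMC45 held 7.28% of the vehicle mean (log2 change -3.11, SE 0.11, limma adjusted p = 1.03e-05). Annotated exons of POLR1G overlap those of ERCC1 on the other strand over 43.5% of its exonic length. ERCC1 had 11.8 and 10.8 TPM in JMC45, against 19.2 and 18.9 TPM in vehicle. No source used here says whether reads were assigned by strand, and the part of ERCC1 reads in the POLR1G value was not tested. POLR1H, the subunit tied to cleavage of the nascent RNA, had 2.67 and 2.43 TPM in JMC45, against 29.1 and 28.7 TPM in vehicle (log2 change -3.07, SE 0.10, limma adjusted p = 9.82e-06). POLR1E, the partner of POLR1G, fell less, with 5.20 ± 0.651 TPM in JMC45 and 21.97 ± 0.311 TPM in vehicle (SD, n = 2 each), a log2 change of -1.89. POLR1F, a stalk subunit that faces the initiation factor RRN3, changed by -2.32.

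The pair of subunits that RNA polymerase I shares with RNA polymerase III, POLR1C and POLR1D, parted from each other. They form a dimer that serves as the assembly platform of both enzymes. POLR1C (ENSG00000171453) had 8.43 and 6.71 TPM in JMC45, against 48.4 and 56.9 TPM in vehicle (log2 change -2.65, SE 0.13, limma adjusted p = 1.63e-05). POLR1D (ENSG00000186184) had 65.3 and 58.7 TPM in JMC45, against 133 and 136 TPM in vehicle (log2 change -1.11, SE 0.07, limma adjusted p = 3.68e-05), a change at the median of all genes. After median-of-ratios scaling POLR1C was still lower (-1.38), while POLR1D had a value of 0.23 that did not pass (limma adjusted p = 0.0894). Quantile normalization called both genes lower, POLR1C at -1.49 (limma adjusted p = 0.000567) and POLR1D at -0.48 (limma adjusted p = 0.00185).

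A ratio of 2 genes within a library does not depend on the factor by which that library is scaled, and the POLR1C to POLR1D ratio showed the widest shift of the 8 pairs compared. It was 0.129 and 0.114 in JMC45, against 0.365 and 0.418 in vehicle, a change of -1.68 in the log2 ratio (SE 0.13). The 2 groups did not overlap, and a two-sided exact permutation test returned p = 0.33, the lowest that 2 libraries against 2 allow, or 0.44 when adjusted over the 8 pairs. Annotated exons of POLR1C overlap genes on the other strand, among them XPO5 (6.27% of its exonic length) and YIPF3 (2.32%). In JMC45 XPO5 had 12.6 and 12.4 TPM and YIPF3 33.7 and 29.4 TPM, and the part of their reads in the POLR1C value was not tested.

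Of the 10 subunits particular to RNA polymerase III, 9 fell on TPM, 8 lay below the median gene, and the median change was -1.87. Their summed TPM was 59.7 and 59.8 in JMC45, against 219 and 215 in vehicle, or 27.6% of the vehicle level. After median-of-ratios scaling 6 were lower and 2 higher.

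The catalytic core was at low TPM after JMC45. POLR3A (ENSG00000148606), the largest subunit, had 1.67 and 2.03 TPM in JMC45, against 11.5 and 10.2 TPM in vehicle (log2 change -2.05, SE 0.14, limma adjusted p = 3.84e-05). POLR3B (ENSG00000013503), its partner in the active centre, had 1.11 and 1.26 TPM in JMC45, against 14.0 and 12.3 TPM in vehicle (log2 change -2.69, SE 0.14, limma adjusted p = 1.58e-05). Their order by TPM therefore differed between the groups. The POLR3A to POLR3B ratio was 1.50 and 1.61 in JMC45, against 0.824 and 0.828 in vehicle, a change of 0.91 in the log2 ratio (SE 0.05) with groups that did not overlap (exact permutation p = 0.33). By contrast, the POLR1A to POLR1B ratio was 0.983 and 0.650 in JMC45, against 0.696 and 0.605 in vehicle, with overlapping groups (exact permutation p = 0.67).

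POLR3D (ENSG00000168495) had the largest decrease among these 10 subunits. It had 1.47 and 2.58 TPM in JMC45, against 21.8 and 23.9 TPM in vehicle (log2 change -3.00, SE 0.19, limma adjusted p = 3.17e-05). Its JMC45 libraries differed from each other more than those of POLR3B did, but both were far below vehicle. POLR3E, its dimer partner, changed by -2.33. POLR3C and POLR3F, which sit in the trimer that takes part in initiation, changed by -2.53 and -1.68.

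The third place in that trimer is taken by POLR3G or its paralog POLR3GL, which are known as alternative subunits, the first enriched in stem cells and tumours and the other widely expressed. POLR3G (ENSG00000113356) had 3.76 and 3.55 TPM in JMC45, against 4.33 and 4.86 TPM in vehicle. Its log2 change of -0.26 (SE 0.13) did not pass (limma adjusted p = 0.106), and it was 0.82 after median-of-ratios scaling (limma adjusted p = 0.00146). POLR3GL (ENSG00000121851) had 9.85 and 9.60 TPM in JMC45, against 22.1 and 23.3 TPM in vehicle (log2 change -1.14, SE 0.09, limma adjusted p = 6.54e-05). POLR3GL remained the more abundant of the pair per length in every library. The POLR3G to POLR3GL ratio was 0.382 and 0.370 in JMC45, against 0.196 and 0.208 in vehicle, a change of 0.89 in the log2 ratio (SE 0.05, exact permutation p = 0.33). Exons of POLR3G overlap those of MBLAC2 on the other strand over 6.47% of its exonic length. MBLAC2 had 1.14 and 0.98 TPM in JMC45, against 9.21 and 8.25 TPM in vehicle. The part of MBLAC2 reads in the POLR3G value was not tested.

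The small subunits POLR3K and CRCP lay higher. POLR3K, which acts in RNA cleavage and termination, had 13.0 and 13.1 TPM in JMC45, against 40.7 and 39.7 TPM in vehicle (log2 change -1.55), and its call was lost after median-of-ratios scaling (-0.26, limma adjusted p = 0.0515). Quantile normalization still called POLR3K lower (-0.40, limma adjusted p = 0.00592). CRCP, a stalk subunit, had 15.0 and 14.3 TPM in JMC45, against 30.3 and 28.0 TPM in vehicle. It fell by 0.94 on the log2 scale on TPM and was called higher after median-of-ratios scaling (0.35). Among the 10 subunits the ratio of the highest to the lowest TPM was 13.5 and 11.3 in the JMC45 libraries, against 9.41 and 8.16 in the vehicle libraries.

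**Figure D3:**
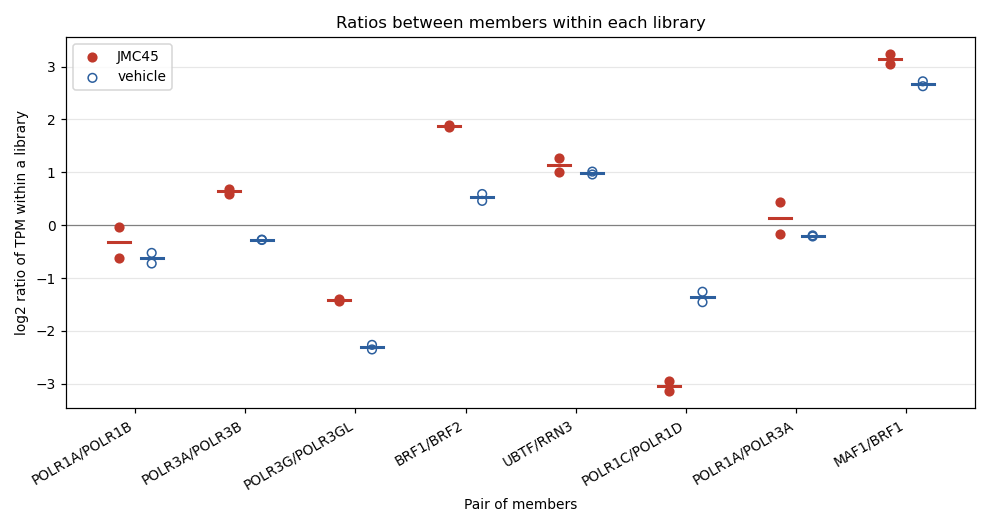
Log2 ratio of TPM between the members of 8 pairs, within each library (filled red, JMC45, left; open blue, vehicle, right; bars, mean of 2 libraries). The groups do not overlap for 6 pairs, with the widest shifts for POLR1C to POLR1D (-1.68) and BRF1 to BRF2 (1.35), and overlap for POLR1A to POLR1B and UBTF to RRN3.

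Among the 6 initiation factors of RNA polymerase I, 5 fell on TPM and TAF1C did not pass. The median change was -1.60. After median-of-ratios scaling 3 were lower and 1 higher.

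UBTF and RRN3 fell side by side. UBTF (ENSG00000108312), which coats the ribosomal DNA, had 16.5 and 15.9 TPM in JMC45, against 69.2 and 66.0 TPM in vehicle (log2 change -1.996, SE 0.07, limma adjusted p = 1.03e-05). RRN3 (ENSG00000085721), which makes the polymerase competent to initiate, had 6.79 and 7.92 TPM in JMC45, against 35.6 and 32.7 TPM in vehicle (log2 change -2.08, SE 0.11, limma adjusted p = 1.73e-05). The UBTF to RRN3 ratio overlapped between the groups, at 2.43 and 2.01 in JMC45 and 1.94 and 2.02 in vehicle (exact permutation p = 0.67). RRN3 has near-identical copies, RRN3P1 to RRN3P3, none above 1.87 TPM in any library, and reads shared with them make its value uncertain.

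The TAF1 proteins form selectivity factor SL1 with the TATA-binding protein, and they spread widely. TAF1A (ENSG00000143498) had 1.72 and 2.19 TPM in JMC45, against 12.6 and 11.6 TPM in vehicle (log2 change -2.15, SE 0.14, limma adjusted p = 3.20e-05). TAF1C (ENSG00000103168) had 11.8 and 12.0 TPM in JMC45, against 11.9 and 9.37 TPM in vehicle, and was the 1 member whose libraries overlapped between the groups. Its log2 change of 0.16 (SE 0.13) did not pass (limma adjusted p = 0.297), it was 1.39 after median-of-ratios scaling (limma adjusted p = 7.63e-05), and 93.5% of all genes tested had a lower change. TAF1B had 4.27 ± 1.01 TPM in JMC45 and 10.6 ± 1.56 TPM in vehicle (SD, n = 2 each), a change of -1.15. TAF1D had 52.4 ± 3.32 TPM in JMC45 and 122 ± 7.77 TPM in vehicle, a change of -1.20, so both lay close to the median gene. After median-of-ratios scaling TAF1B had a value of 0.025 and TAF1D of 0.13, and neither passed. Quantile normalization called TAF1D lower (-0.51, limma adjusted p = 0.00185), while TAF1B, at 0.22, did not pass there either.

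GTF3A (ENSG00000122034), transcription factor IIIA, binds the internal promoter of 5S ribosomal RNA genes. It had 88.4 and 90.6 TPM in JMC45, against 110 and 111 TPM in vehicle. It fell by 0.30 on the log2 scale (SE 0.06, limma adjusted p = 0.00346), a call that was lost when the mitochondrially encoded genes were left out (-0.16, limma adjusted p = 0.0587). After median-of-ratios scaling it was higher in JMC45 (1.04, limma adjusted p = 0.000172).

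All 6 subunits of TFIIIC, which recognises the internal promoters of transfer RNA genes and recruits TFIIIB, fell on TPM. GTF3C2 (ENSG00000115207) had the largest decrease of the 6, with 8.94 and 8.10 TPM in JMC45, against 56.9 and 50.6 TPM in vehicle (log2 change -2.52, SE 0.10, limma adjusted p = 1.08e-05). GTF3C6 (ENSG00000155115), the most abundant of all 40 members in each library, had 215 and 206 TPM in JMC45, against 280 and 314 TPM in vehicle (log2 change -0.49, SE 0.07, limma adjusted p = 0.00104). GTF3C5 changed by -2.20, GTF3C3 by -1.69, GTF3C4 by -1.64 and the largest subunit GTF3C1 by -1.08. After median-of-ratios scaling 4 of the 6 were lower, GTF3C1 had a value of 0.22 that did not pass, and GTF3C6 was higher (0.85, limma adjusted p = 0.00108). Quantile normalization called 2 of the 6 lower, GTF3C2 and GTF3C5, and 0 higher. There GTF3C3 (-0.38, limma adjusted p = 0.0505), GTF3C4 (-0.27, limma adjusted p = 0.0767) and GTF3C6 (-0.10, limma adjusted p = 0.281) did not pass, so the direction of GTF3C6 differed between the 2 scalings. GTF3C6 was 60.0 and 55.6 times as abundant per length as GTF3C4 in the JMC45 libraries, against 18.5 and 26.0 times in the vehicle libraries.

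TFIIIB, which places RNA polymerase III at the start site, is built from the TATA-binding protein, BDP1 and either BRF1 or BRF2. The 3 members among these, BDP1, BRF1 and BRF2, fell under TPM and both other scalings. Their summed TPM was 12.5 and 10.9 in JMC45, against 60.7 and 49.9 in vehicle. BRF1 (ENSG00000185024), used at transfer RNA and 5S genes, had 2.93 and 2.76 TPM in JMC45, against 15.7 and 15.4 TPM in vehicle (log2 change -2.11, SE 0.11, limma adjusted p = 1.76e-05). BRF2 (ENSG00000104221), used at genes with promoters upstream of the start such as that of U6 RNA, had 0.81 and 0.74 TPM in JMC45, against 11.4 and 10.3 TPM in vehicle (log2 change -2.74, SE 0.13, limma adjusted p = 1.50e-05). Its JMC45 mean was 7.16% of its vehicle mean, the lowest such percentage of the 40, and at this level the log2(TPM + 1) scale understates the change.

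The BRF1 to BRF2 ratio was 3.62 and 3.73 in JMC45, against 1.38 and 1.50 in vehicle, a change of 1.35 in the log2 ratio (SE 0.07) with groups that did not overlap (exact permutation p = 0.33). BDP1 (ENSG00000145734) had 8.80 and 7.41 TPM in JMC45, against 33.6 and 24.2 TPM in vehicle, and its log2 change of -1.70 (SE 0.17, limma adjusted p = 0.000177) was the smallest decrease of the 3. After quantile normalization BDP1 changed by -0.43 and passed only narrowly (limma adjusted p = 0.0497).

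SNAPc binds the upstream element of small nuclear RNA genes and serves both RNA polymerase II and III, and its 5 subunits fell into separate levels of change. SNAPC2 (ENSG00000104976) had 4.43 and 3.57 TPM in JMC45, against 29.7 and 32.9 TPM in vehicle (log2 change -2.70, SE 0.13, limma adjusted p = 1.36e-05). SNAPC5 and SNAPC1 changed by -1.88 and -1.85 on the log2(TPM + 1) scale, but their JMC45 means were 26.0% and 16.6% of vehicle. With 0.1 instead of 1 added to TPM the changes were -1.94 and -2.49. SNAPC4 (ENSG00000165684), the largest subunit, with a Myb-type DNA-binding domain, had 3.26 and 2.91 TPM in JMC45, against 4.13 and 4.12 TPM in vehicle, and its log2 change of -0.33 (SE 0.13) did not pass (limma adjusted p = 0.0569). SNAPC3 had 19.6 and 21.2 TPM in JMC45, against 29.3 and 25.0 TPM in vehicle. Its decrease of -0.39 passed (limma adjusted p = 0.0130) but not without vehicle replicate 1 (-0.28, limma adjusted p = 0.0672) or without JMC45 replicate 1 (-0.34, limma adjusted p = 0.0743), nor when the mitochondrially encoded genes were left out (-0.25, limma adjusted p = 0.0763). After median-of-ratios scaling SNAPC1, SNAPC2 and SNAPC5 were lower, and SNAPC3 (0.90) and SNAPC4 (0.72) higher.

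MAF1 (ENSG00000179632), which binds RNA polymerase III and represses it when nutrients are scarce, fell together with the machinery it acts on. It had 24.3 and 26.0 TPM in JMC45, against 96.9 and 102 TPM in vehicle (log2 change -1.94, SE 0.07, limma adjusted p = 1.04e-05). The change was -0.62 under median-of-ratios scaling. The MAF1 to BRF1 ratio was 8.30 and 9.42 in JMC45, against 6.18 and 6.59 in vehicle, a change of 0.47 in the log2 ratio (SE 0.10, exact permutation p = 0.33). The POLR1A to POLR3A ratio, which sets the largest subunits of the 2 enzymes side by side, was 1.35 and 0.887 in JMC45, against 0.863 and 0.875 in vehicle. Its groups did not overlap, but the change of 0.33 in the log2 ratio (SE 0.31) was close to the spread between the JMC45 libraries.

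**Figure D4:**
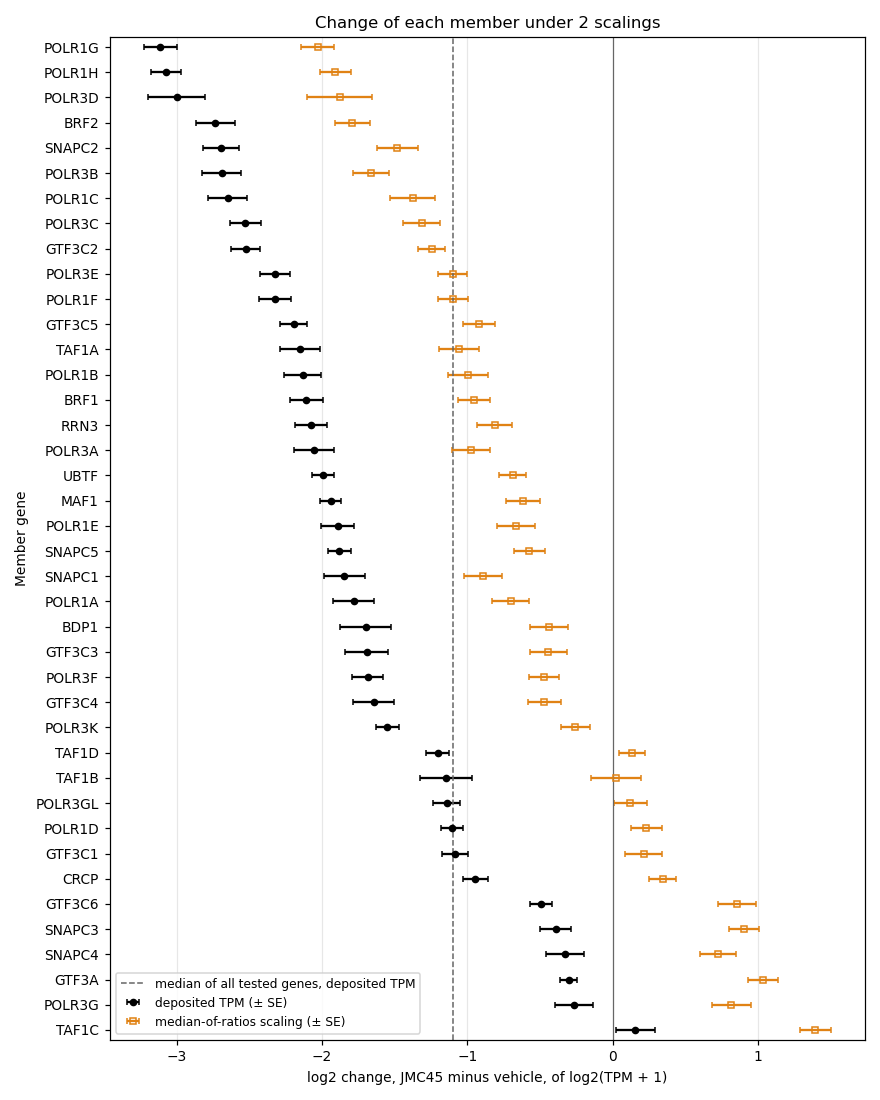
Log2 change, JMC45 minus vehicle, of log2(TPM + 1) for each member, ordered from the lowest at the top, on deposited TPM (filled black) and after median-of-ratios scaling (open orange); bars are limma standard errors. The solid line marks 0 and the dashed line the median of all tested genes on TPM (-1.10). POLR1G is at the top at -3.11 and TAF1C at the bottom at 0.16, and 12 members lie above 0 after median-of-ratios scaling, of which 7 passed.

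GTF3C6, GTF3A, POLR1D and TAF1D, chosen after their values were seen as the 4 most abundant members, held 62.7% and 61.4% of the summed TPM of the 40 members in JMC45, against 39.4% and 41.2% in vehicle. Over the whole table the 100 most abundant genes likewise held a larger share of TPM in JMC45, as given above, and no difference between the members and other genes was tested. Across the 40 members, the Spearman correlation of the log2 change with gene span, from GENCODE release 29, was 0.22, and it was 0.065 with exonic length and 0.079 with the number of separate exonic blocks. Over the 13475 tested genes with an entry the values were 0.0012, -0.082 and 0.031, in the same order. These correlations are across genes, which are not independent replicates and share the same 4 libraries.

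Of 16 other genes that work with either polymerase, 14 fell (87.5%) and 0 rose on TPM, with a median change of -1.16, against 80.7% of all genes called lower and a median of -1.10. Under median-of-ratios scaling 6 were lower (37.5%) and 7 higher (43.8%), against 35.5% and 34.9% of all genes. No difference between this list and all genes was tested. At an unadjusted p under 0.05 there were also 0 higher on TPM. Among these 16, TTF1, a termination factor of RNA polymerase I, had the largest decrease, with 0.61 and 1.11 TPM in JMC45, against 8.85 and 8.36 TPM in vehicle (log2 change -2.38). LARP7, a La-related protein of the 7SK particle, changed by -2.20, and TBP, the TATA-binding protein that SL1, TFIIIB and TFIID hold in common, by -2.18. TCOF1, a nucleolar protein that assists ribosomal RNA transcription, changed by -1.93. Of the 5 subunits common to all 3 nuclear RNA polymerases, POLR2E had 141 and 126 TPM in JMC45, against 138 and 132 TPM in vehicle, and its change of -0.016 did not pass (limma adjusted p = 0.857). POLR2L, at -0.20, did not pass either (limma adjusted p = 0.137), and POLR2F changed by -0.24, POLR2K by -1.25 and POLR2H by -1.57.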

How the data were processed

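RNA of 22Rv1 cells, 2 JMC45 and 2 vehicle libraries, was measured by poly(A)-selected sequencing with a stranded kit, per the labels' protocols. Per the file headers, the authors deposited TPM for every Ensembl gene in each library. Tools listed in the submitters' processing notes are fastp, HISAT2 and StringTie, with neither version nor role. Genome build and annotation: not given in the sources used here. Of 63241 genes, 62666 matched a symbol. 50 lines without values were left out. TPM keeps no depth, so no counting intervals are given. The 2 columns named as controls were assigned to vehicle by name and number.

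Values were tested as log2(TPM + 1) where the 4 libraries averaged 1 TPM or more. The test was two-sided (limma 3.58.1, R 4.3.3), used an intensity trend without a replicate block, and was fitted to the whole table. Ratios between members were compared by an exact permutation test. Python 3.11.15, pandas 2.3.3 and matplotlib 3.10.9 were used for summaries. The deviations of same-numbered libraries from their group means had a correlation of -0.05 across genes, so the numbers were not taken to pair the libraries.

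The members, the lists, the 8 pairs and the 13 alternatives were chosen with earlier results of these data known. Values per library are given for preset genes and for the lowest and highest change in each role group. Other members are given by their change. In 16 of the 40 members annotated exons overlap those of a gene with a mean TPM of at least 1, on the other strand for 15, so such values are uncertain without known strand handling. A preset gene of the wider pathway is not reported here, and the counts of that list leave it out.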

Additional observations from a re-analysis of the deposited data

How the results depend on the processing

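The scaling of the libraries decided the direction of the members that fell least. Of all genes tested on TPM, 596 were higher and 11311 lower. Median-of-ratios scaling gave 4888 higher and 4981 lower, and quantile normalization 4581 and 4830. Holding the summed TPM of mitochondrially encoded genes equal gave 181 higher and 12685 lower. Members called higher numbered 0 on TPM, 7 under median-of-ratios scaling and 6 under quantile normalization. An equal mitochondrially encoded total gave 0 members higher and 39 lower, among them POLR3G (-0.64, limma adjusted p = 0.00432) and SNAPC4 (-0.69, limma adjusted p = 0.00290). The members' median relative to all genes was -0.79 on TPM, -0.66 under median-of-ratios scaling, -0.69 under quantile normalization, -0.85 under an equal mitochondrially encoded total, -0.72 with a pseudocount of 0.1 and -1.59 with no filter on low values, where many more genes near 0 enter the comparison. Leaving out the mitochondrially encoded genes gave 35 members lower, with GTF3A and SNAPC3 no longer called, and 842 genes higher. With each library left out in turn the members' relative median lay between -0.86 and -0.74, the members called lower numbered 36 to 37, all genes called higher 425 to 530 and all genes called lower 10513 to 11083. With the replicate block 37 members were lower and 0 higher, and 613 genes were higher and 11380 lower.

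After median-of-ratios scaling the change turned positive for POLR1D (0.23), POLR3G (0.82), POLR3GL (0.12), CRCP (0.35), TAF1B (0.025), TAF1D (0.13), GTF3A (1.04), GTF3C1 (0.22), GTF3C6 (0.85), SNAPC3 (0.90) and SNAPC4 (0.72). After quantile normalization it turned positive for POLR3G (1.01), POLR3GL (0.15), CRCP (0.26), TAF1B (0.22), GTF3A (0.31), GTF3C1 (0.064), SNAPC3 (0.77) and SNAPC4 (0.94). TAF1C was at -0.27 under an equal mitochondrially encoded total. The unknown depth limits what can be said of members near 1 TPM, such as BRF2 and SNAPC1 in JMC45.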
